A study of Mus musculus with 12 samples.

Results

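The genes described here make, store and break down fat: 43 mouse genes of fatty acid synthesis, desaturation and elongation, triglyceride assembly, lipid droplet coating and lipolysis. They were chosen by symbol from their known roles in fat metabolism, with earlier results of these data known. Of these, 39 had a probe set that maps to 1 symbol, among 12393 such genes on the array, and each was read from its brightest probe set by the mean over the arrays. The test took in 33 of them, among 8675 genes in all. The other 6 (Acacb, Elovl6, Thrsp, Cidea, Cidec and G0s2) lay below the intensity filter of 132 and are given separately, and 4 (Slc25a1, Agpat2, Plin1 and Pde3b) had no such probe set in the table used here.

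The cells were mouse embryonic fibroblasts (MEFs) that lack their own PPARγ and had been given back either wild-type PPARγ or the S273A form, in which 1 serine is replaced by alanine so that it cannot be phosphorylated there. PPARγ is the nuclear receptor that drives fat cell formation, and all 4 groups shared the knockout background and 6 days of differentiation. A group of 3 arrays came from untreated wild-type cells and 3 from S273A cells. A further 3 came from wild-type cells given 1 µM rosiglitazone for 24 h, and 3 from wild-type cells given 1 µM MRL24 for 24 h. Rosiglitazone is a thiazolidinedione and a full PPARγ agonist, and MRL24 is a PPARγ ligand with weaker agonist activity. The labels name 1 cell population for each receptor form, so the receptor form and the population that carries it cannot be told apart. They name no vehicle in the untreated cells, and S273A cells with a ligand were not analysed here. Whether a group's 3 arrays stand for independent cultures is not stated, so the p-values speak for array-to-array spread alone, and that may be technical.

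The labels call the cells adipocytes. Of 12 adipocyte markers, 10 had a probe set and 6 passed the filter, among them Fabp4 (fatty acid carrier) and Lpl (lipoprotein lipase). Adipoq (adiponectin) and Lep (leptin) did not. The 6, and the sums below, include Pparg, the introduced gene, whose signal follows from the design and does not speak for cell type. Adipoq averaged 53.5 ± 14.1 (SD) in untreated wild-type cells, 97.2 ± 7.9 with S273A, 139 ± 4.8 with rosiglitazone and 68 ± 22.5 with MRL24. All 8 fibroblast and preadipocyte markers passed the filter. Their summed intensity was 82250 to 92940 in the wild-type arrays, 76766 to 81958 with S273A, 86031 to 90733 with rosiglitazone and 91391 to 94586 with MRL24. The summed adipocyte markers lay at 12586 to 14492, 13519 to 14653, 30634 to 30914 and 19581 to 19761 in the same order. Fabp4 alone averaged 9509, 9701, 25153 and 15339, so this sum mostly follows 1 gene. Against wild-type, Fabp4 and Lpl were called higher for both ligands and Slc2a4 (a glucose transporter) for MRL24. Retn (resistin) and Cebpa (a transcription factor) were called for neither, averaging 323 and 313 in wild-type and 331 and 351 with rosiglitazone. In S273A cells, 6 of the 8 fibroblast and preadipocyte markers were called lower than in wild-type, beside 5.48% of all tested genes. Dlk1 (13702 ± 1393 in wild-type and 13075 ± 482 with S273A) and Vim (31091 ± 1734 and 31947 ± 400) were not. Of 4 tested macrophage markers 1, Cd68, was higher (869.7 ± 11.4 against 556 ± 37 in wild-type, adjusted p = 4.55e-05), with Itgam and Lyz2 below the filter. The summed macrophage markers were 2819 to 3285 in wild-type, 3537 to 3670 with S273A, 3008 to 3307 with rosiglitazone and 3062 to 3129 with MRL24. Fibroblast markers also differed with the ligands: Pdgfra and Thy1 were lower with rosiglitazone, Pdgfra was lower with MRL24, and between the ligands Col3a1 and Thy1 had their lower level with rosiglitazone. The part of these marker differences in the lipid gene results was not tested, and in a culture of mixed cells fewer cells of a type and less RNA per cell cannot be told apart. Pparg itself, the introduced gene, averaged 904 ± 97.7, 1073 ± 162, 834 ± 76.1 and 846 ± 20.7 in wild-type, S273A, rosiglitazone and MRL24 arrays. It was not called against untreated wild-type or between the ligands, and was lower than in S273A cells with rosiglitazone (log2 -0.35, adjusted p = 0.036) and MRL24 (log2 -0.33, adjusted p = 0.0491). Array medians lay between 297 and 315. Untreated wild-type replicate 2 had the largest residual SD (0.142 on the log2 scale, others 0.0883 to 0.120) and the lowest ratio of 5′ to 3′ actin signal (0.872, others 0.898 to 0.970).

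Fat cells build fatty acids from citrate. ATP citrate lyase splits it to acetyl-CoA, acetyl-CoA carboxylase makes malonyl-CoA and fatty acid synthase condenses these units, after which desaturases and elongases modify the chain. Acyltransferases, lipins and diacylglycerol acyltransferases then assemble triglyceride, which perilipins and related proteins hold in the lipid droplet. Adipose triglyceride lipase with its coactivator Abhd5, hormone-sensitive lipase and monoglyceride lipase release the fatty acids again. Many of these genes are known PPARγ targets in fat cells. PPARγ and its partner RXR bind paired AGGTCA motifs that are 1 base apart (a DR1 element).

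Promoters from RefSeq (GRCm38.p6, 250 bases before to 50 after each start) were held for 35 of the 43 genes. Parts of 3 of them are shown, because Plin2 and Acly had the lowest adjusted p-values with rosiglitazone and Abhd5 the lowest with S273A. Capitals mark the match to the DR1 pattern AGGTCANAGGTCA with up to 2 mismatches in its 12 fixed letters (Plin2) or to a single AGGTCA (Acly and Abhd5), on either strand. The Plin2 stretch lies on the minus strand at chr4:86670218-86670309, the Acly stretch on the minus strand at chr11:100528001-100528120 and the Abhd5 stretch on the plus strand at chr9:122351496-122351615, each upstream of its gene's start and printed 5′ to 3′ along the gene's strand.
Plin2: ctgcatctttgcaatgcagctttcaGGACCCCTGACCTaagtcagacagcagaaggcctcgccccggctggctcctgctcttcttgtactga
Acly: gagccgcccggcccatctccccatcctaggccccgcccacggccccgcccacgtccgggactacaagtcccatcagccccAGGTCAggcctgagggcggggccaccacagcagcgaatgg
Abhd5: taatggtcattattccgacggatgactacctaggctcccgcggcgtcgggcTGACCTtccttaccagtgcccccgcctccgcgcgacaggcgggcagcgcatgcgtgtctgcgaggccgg

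The match in Plin2 lies 225 to 213 bases before the start. A DR1-like match was present in 4 of the 35 promoters (Cav1, Elovl1, Mogat1 and Plin2) and in 4.40% of all 27025 genes with a promoter in the table. An exact DR1 was present in none of the 35 and in 0.0481% of all genes. The single motif AGGTCA was present in 10 of the 35 and in 18.1% of all genes, and it overlaps the DR1-like match in Plin2 and Elovl1. The palindrome CACGTG, the core bound by basic helix-loop-helix factors such as SREBP1 and ChREBP, was present in 7 of the 35 and in 8.09% of all genes. Among the 7 genes with a promoter that were higher with rosiglitazone, 1 held a DR1-like match, 3 a single AGGTCA and 2 a CACGTG. These matches describe the letters only and are not binding sites measured here.

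Rosiglitazone moved the largest number of these genes away from untreated wild-type. Of the 33 tested, 9 rose and 1 fell at an adjusted p under 0.05 (limma over all 12 arrays, Benjamini-Hochberg adjustment over 8675 genes), where 8.52% of all tested genes were called, 3.94% higher and 4.58% lower. Those that rose were Plin2, Acly, Dgat2, Acss2, Fads3, Pnpla2, Lipe, Dgat1 and Abhd5, and the one that fell was Lpin2. In S273A cells 4 rose (Abhd5, Pnpla2, Scd1 and Dgat1) and 1 fell (Lpin1), against a background of 7.78% called, 2.31% higher and 5.48% lower. With MRL24, 2 rose (Acly and Acaca) and none fell, against 5.86% called, 3.39% higher and 2.47% lower, so the share called was near the background. Those all-gene shares by direction for MRL24 depend on scaling: 57.9% of its calls were higher, against 43.8% after quantile normalization and 30.2% with the arrays at a common median. An unadjusted p under 0.05 was found for 11, 18 and 11 of the 33 with S273A, rosiglitazone and MRL24, and for 1862, 2062 and 2183 of the 8675. The genes were chosen with earlier results of these data known, so these counts beside all genes are no independent test of the list. Leaving out 1 array left 1 S273A call without S273A replicate 2, 2 without S273A replicate 1 or wild-type replicate 1, and 3 to 5 in the other 9 fits. For MRL24 it left 1 call, Acly, in 9 of 12 fits. The median log2 difference over the 33 genes was 0.08 with S273A, 0.13 with rosiglitazone and 0.10 with MRL24, while over all tested genes it was within 0.01 of 0 in each. Without a test, 9 of the 33 had every S273A array above and 3 every one below the wild-type arrays (9.11% and 13.9% of all tested genes), 15 and 5 did so with rosiglitazone (12.1% and 14.2%), and 13 and 3 with MRL24 (15.6% and 14.2%). The fit used log2(intensity + 16), so log2 differences and folds are on that scale and understate the change of dim genes.

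**Figure D1:**
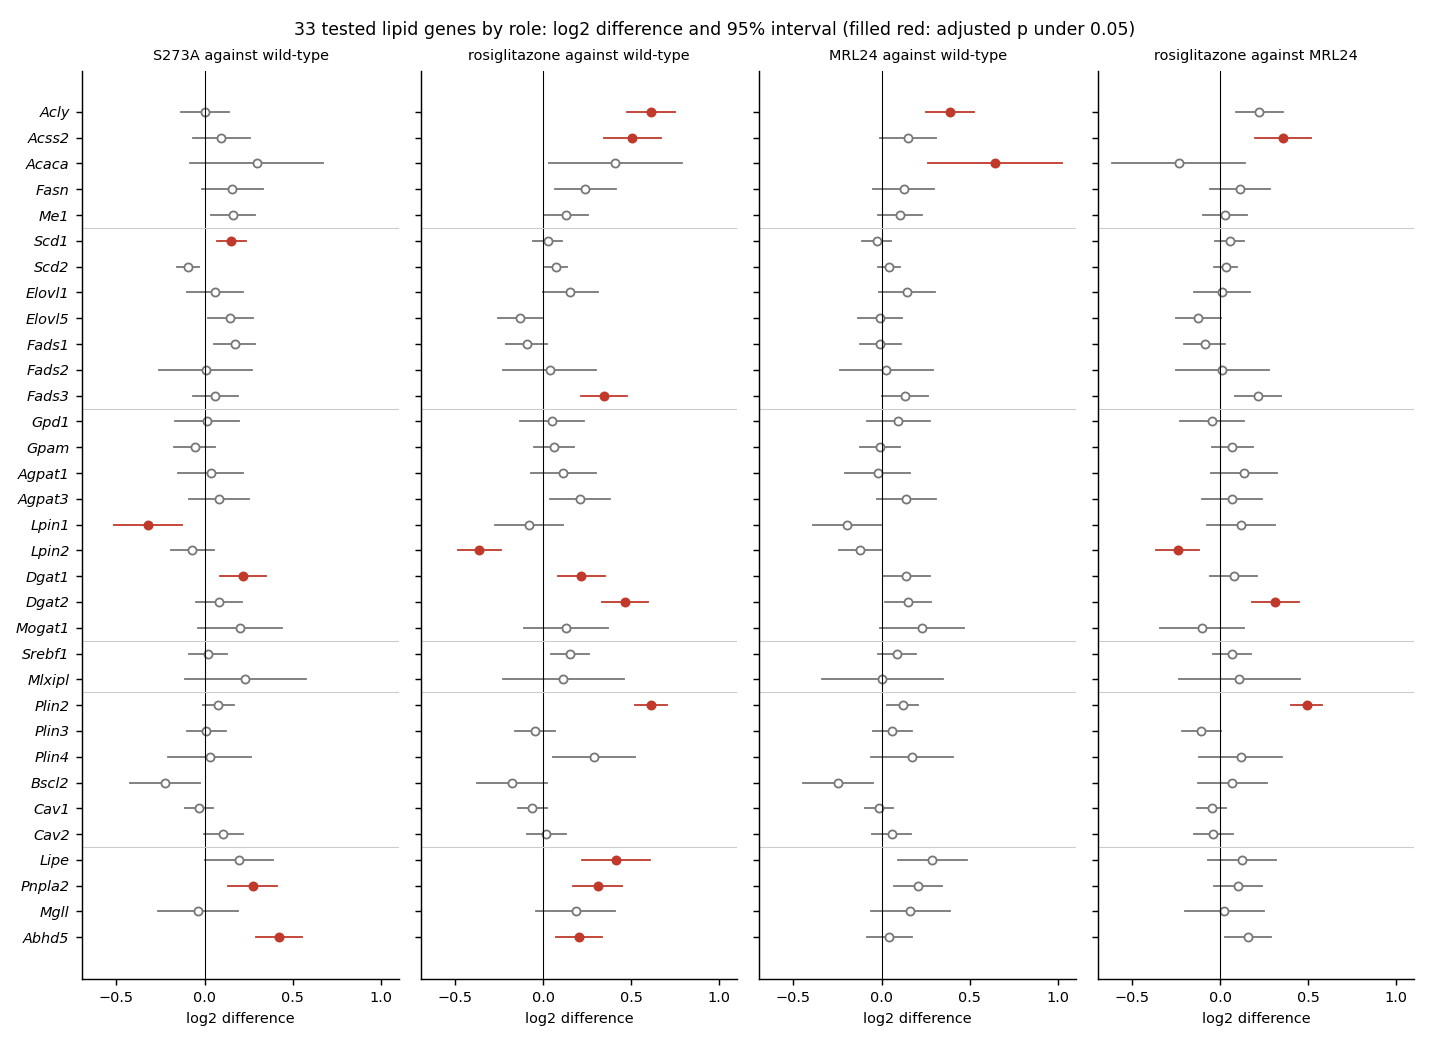
Log2 difference (x axis) with its 95% interval for the 33 tested lipid genes, grouped by role from fatty acid synthesis at the top to lipolysis at the bottom, in 4 comparisons. Filled red points passed an adjusted p under 0.05: 5 for S273A, 10 for rosiglitazone and 2 for MRL24 against wild-type, and 4 for rosiglitazone against MRL24.

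Among the enzymes that make fatty acids, Acly and Acss2 rose with rosiglitazone and Acly and Acaca with MRL24, and none of the 5 tested was called in S273A cells. Acly, ATP citrate lyase, read 4350, 3568 and 4054 in untreated wild-type arrays, 3693, 4302 and 3993 with S273A, 6059, 6214 and 5996 with rosiglitazone and 5281, 5133 and 5227 with MRL24. Both ligand groups lay above all untreated and S273A arrays, and all rosiglitazone arrays lay above all MRL24 arrays. The rise was 1.53-fold with rosiglitazone (log2 0.61, SE 0.06, adjusted p = 1.3e-05) and 1.31-fold with MRL24 (log2 0.39, SE 0.06, adjusted p = 0.00682). The S273A mean of 3996 ± 304 stood beside 3991 ± 395 in wild-type (log2 0.00, adjusted p = 0.981).

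Acss2, which makes acetyl-CoA from acetate, read 418, 396 and 428 in wild-type, 401, 457 and 475 with S273A, 579, 608 and 597 with rosiglitazone and 468, 442 and 472 with MRL24. Only the rosiglitazone arrays stood clear of all other arrays, 1.42-fold above wild-type (log2 0.51, SE 0.08, adjusted p = 0.000445). Acaca, acetyl-CoA carboxylase 1, was dim and spread widely, at 112, 181 and 175 in wild-type, 232, 169 and 177 with S273A, 190, 199.9 and 237 with rosiglitazone and 198, 263 and 290 with MRL24. It rose 1.56-fold with MRL24 (log2 0.64, SE 0.18, adjusted p = 0.0454), and wild-type replicate 1 was its lowest array. That call was lost in 9 of 12 fits that left out 1 array (adjusted p 0.051 to 0.178), and held without wild-type replicate 3, S273A replicate 1 or MRL24 replicate 1.

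Fasn, fatty acid synthase, averaged 674 ± 36.4 in wild-type, 755 ± 58.3 with S273A, 801 ± 84 with rosiglitazone and 737 ± 35.7 with MRL24, and no difference passed the test (rosiglitazone: log2 0.24, adjusted p = 0.0806). Me1, malic enzyme, which supplies NADPH, averaged 1579 ± 99.2, 1770 ± 107, 1725 ± 21.9 and 1695 ± 61.5 in the same order. All 5 tested enzymes had every rosiglitazone array above every wild-type array, where 12.1% of all tested genes did.

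**Figure D2:**
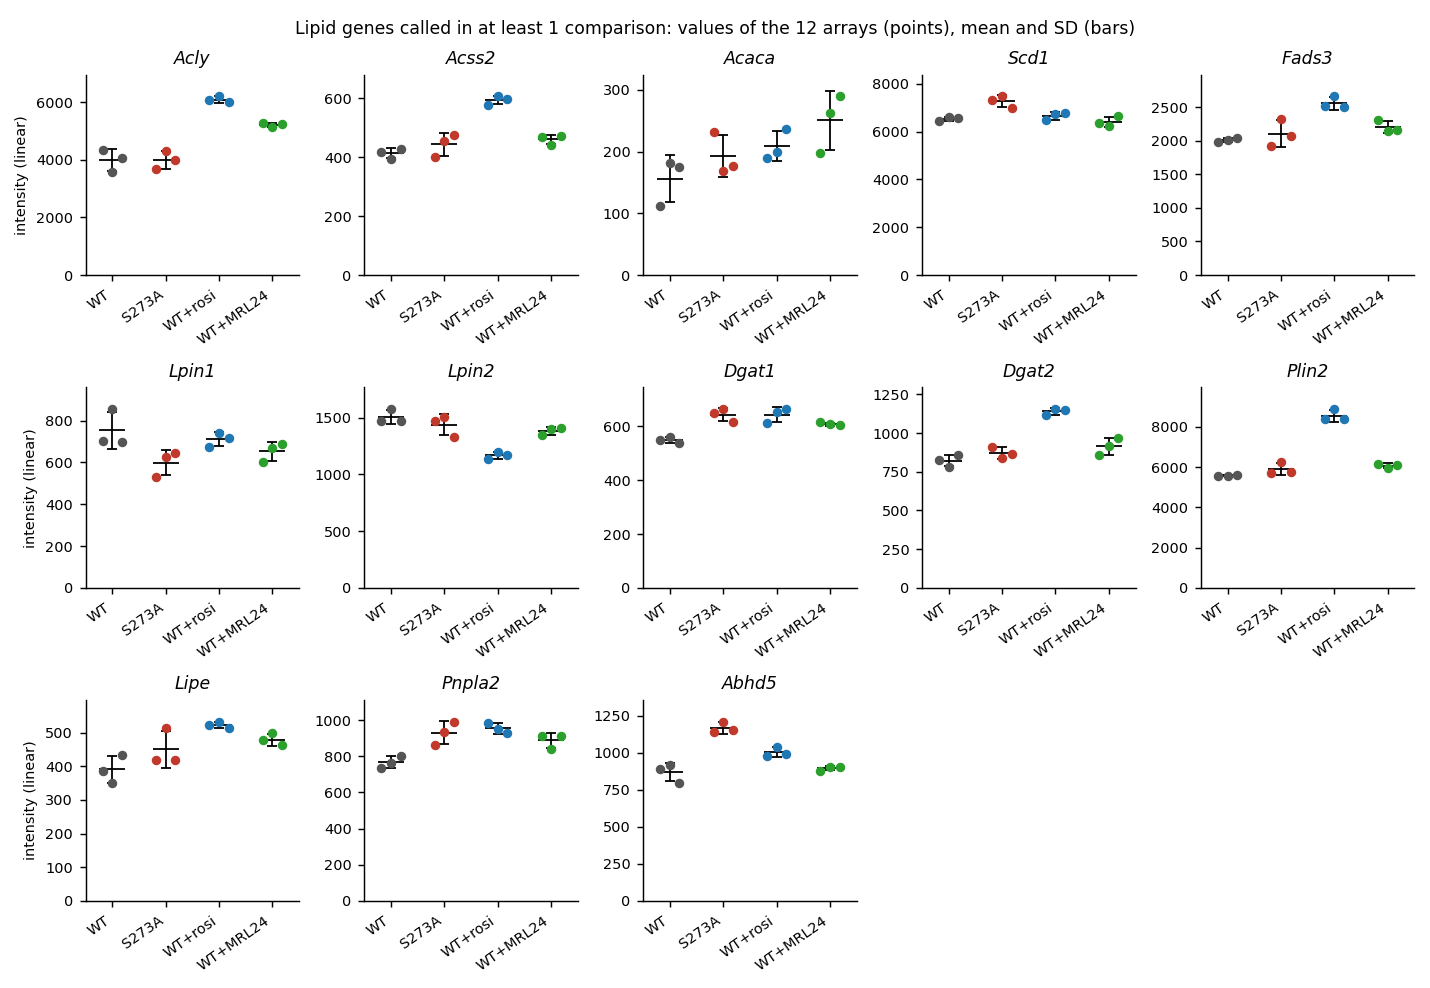
Intensity on a linear scale (y axis, starting at 0) for the 13 lipid genes called in at least 1 of the 4 comparisons. Points are the 3 arrays of each group, with the mean and SD as bars. Plin2 reached 8368 to 8891 with rosiglitazone and stayed between 5575 and 6252 in all other arrays.

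Desaturases and elongases moved little on their brightest probe sets. Fads3, a fatty acid desaturase family member, read 1983, 2010 and 2038 in wild-type, 1922, 2322 and 2072 with S273A, 2514, 2668 and 2499 with rosiglitazone and 2304, 2149 and 2161 with MRL24. The rosiglitazone arrays were above all others, 1.27-fold over wild-type (log2 0.35, SE 0.06, adjusted p = 0.0021). In RefSeq gene order Fads3, Fads2 and Fads1 are direct neighbours on the chromosome. Fads1, the delta-5 desaturase, averaged 1404 ± 32.1 in wild-type, 1584 ± 44.4 with S273A, 1315 ± 63 with rosiglitazone and 1398 ± 66 with MRL24, and was not called against wild-type in any group. Fads2, the delta-6 desaturase, was not called on its brightest probe set, with means of 776 ± 84.8, 781 ± 109, 802 ± 131 and 792 ± 98.4.

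Scd1, stearoyl-CoA desaturase 1, read 6444, 6622 and 6560 in wild-type, 7310, 7495 and 7001 with S273A, 6470, 6743 and 6775 with rosiglitazone and 6345, 6252 and 6654 with MRL24. The S273A arrays were above every other array, 1.11-fold over wild-type (log2 0.15, SE 0.04, adjusted p = 0.026). This call was lost without wild-type replicate 1 (adjusted p = 0.0703), wild-type replicate 3 (0.0539), S273A replicate 1 (0.0676) or S273A replicate 2 (0.114). Its neighbour Scd2, with Scd4 between them, read 14414, 13633 and 14020 in wild-type and 13128, 13201 and 13126 with S273A, so all S273A arrays were lower, but the difference was not called (log2 -0.09, adjusted p = 0.0718). With rosiglitazone Scd2 read 14743, 14820 and 14672, and with MRL24 14260, 14395 and 14632. Elovl1 and Elovl5, fatty acid elongases, averaged 1487 ± 133 and 1634 ± 61.1 in wild-type and were called in no comparison with it.

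In triglyceride assembly, the enzymes at the last step were higher and a lipin was lower with rosiglitazone. Dgat2, a diacylglycerol acyltransferase of the final step, read 827, 782 and 855 in wild-type, 911, 837 and 864 with S273A, 1116, 1156 and 1147 with rosiglitazone and 859, 917 and 965 with MRL24. The rosiglitazone arrays did not overlap any other group, at 1.38-fold over wild-type (log2 0.47, SE 0.06, adjusted p = 0.000159). Dgat1, the other enzyme of that step, read 550, 560 and 539 in wild-type, 651, 664 and 615 with S273A, 611, 652 and 665 with rosiglitazone and 614, 607 and 603 with MRL24. All 9 other arrays were above the 3 wild-type arrays. The differences were called for S273A (log2 0.22, SE 0.06, adjusted p = 0.0396) and rosiglitazone (log2 0.22, SE 0.06, adjusted p = 0.0378) but not for MRL24 (log2 0.14, adjusted p = 0.169). Leaving out 1 array ended the S273A call in 10 of 12 fits (adjusted p 0.0501 to 0.133), all but those without wild-type replicate 2 or rosiglitazone replicate 1. It ended the rosiglitazone call in 8 of 12 (adjusted p 0.0531 to 0.127), all but those without an S273A array or rosiglitazone replicate 1.

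Lpin2, a lipin, which makes diacylglycerol from phosphatidate, read 1474, 1578 and 1473 in wild-type, 1470, 1510 and 1333 with S273A, 1139, 1197 and 1171 with rosiglitazone and 1344, 1400 and 1410 with MRL24. Every rosiglitazone array was below every other array, and the gene fell by 0.36 on the log2 scale (SE 0.06, adjusted p = 0.000799). Lpin1, the lipin best known from fat tissue, read 703, 856 and 699.6 in wild-type, 531, 624 and 643 with S273A, 675, 740.3 and 715 with rosiglitazone and 603, 668 and 689.6 with MRL24. It fell with S273A by 0.32 on the log2 scale (SE 0.09, adjusted p = 0.0418), with all S273A arrays below all wild-type arrays. Leaving out 1 array ended this call in 8 of 12 fits (adjusted p 0.0507 to 0.156), and it held without wild-type replicate 1, wild-type replicate 3, S273A replicate 3 or MRL24 replicate 1.

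The other 5 tested genes of this step were not called on their brightest probe sets. Gpd1 supplies glycerol 3-phosphate and averaged 516 ± 33.5 in wild-type, with group means from 516 to 552. Gpam adds the first acyl chain, and its means lay between 1592 and 1730. Agpat1 and Agpat3 add the second, with rosiglitazone differences of log2 0.11 (adjusted p = 0.462) and 0.21 (adjusted p = 0.12). Mogat1, a monoacylglycerol acyltransferase, averaged 227 ± 13.8 in wild-type and 250.1 ± 25.8, 264 ± 31.2 and 269 ± 27.9 with rosiglitazone, S273A and MRL24.

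Both tested transcription factors of lipogenesis were uncalled in every comparison. Srebf1, which encodes SREBP1, averaged 2124 ± 48.2 in wild-type, 2156 ± 87 with S273A, 2364 ± 112 with rosiglitazone and 2257 ± 68.2 with MRL24, and all rosiglitazone arrays were above all wild-type arrays (log2 0.15, adjusted p = 0.0745). Mlxipl, which encodes the carbohydrate sensor ChREBP, averaged 254 ± 20.6, 308 ± 90.2, 278 ± 39.6 and 256 ± 36 in the same order.

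Of the 6 tested droplet and caveola genes, Plin2 alone was called. Plin2, a perilipin on the droplet surface, read 5575, 5578 and 5599 in wild-type, 5684, 6252 and 5767 with S273A, 8368, 8891 and 8393 with rosiglitazone and 6177, 5968 and 6087 with MRL24. The rosiglitazone arrays were far above all others, 1.53-fold over wild-type (log2 0.61, SE 0.04, adjusted p = 1.53e-07), the lowest p of the 33 genes in any comparison. The MRL24 arrays were also above the wild-type arrays, and this difference was not called (log2 0.12, adjusted p = 0.0871). Plin4, a perilipin of forming droplets, averaged 412 ± 46.7 in wild-type and 507 ± 54.7 with rosiglitazone (log2 0.29, adjusted p = 0.116), and Plin3 averaged 1828 ± 60.6 and 1770 ± 25.5. Bscl2, which encodes seipin, was uncalled, at 285 ± 11.5 in wild-type, 242 ± 22 with S273A, 249.9 ± 7.99 with rosiglitazone and 237 ± 11.2 with MRL24. Every array of the other groups lay below every wild-type array. A second Bscl2 probe set gave log2 0.06 with S273A, 0.01 with rosiglitazone and 0.03 with MRL24, all uncalled. Cav1 and Cav2, caveolin genes that are direct neighbours in RefSeq order, had group means between 9669 and 10088 and between 2849 and 3069, with no call.

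Of the 4 tested lipolysis genes, Abhd5 and Pnpla2 rose with S273A, these and Lipe with rosiglitazone, and none with MRL24, beside the all-gene shares of 2.31%, 3.94% and 3.39% called higher. Pnpla2, adipose triglyceride lipase, which takes off the first fatty acid, read 737, 761 and 804 in wild-type, 864, 937 and 992 with S273A, 984, 952 and 928 with rosiglitazone and 914, 841 and 911 with MRL24. All 9 other arrays were above the wild-type arrays. The difference was log2 0.27 with S273A (SE 0.07, adjusted p = 0.0169), 0.31 with rosiglitazone (SE 0.07, adjusted p = 0.00682) and 0.21 with MRL24, not called (adjusted p = 0.0678). The S273A call was lost without wild-type replicate 1 (adjusted p = 0.0604), S273A replicate 2 (0.0583) or S273A replicate 3 (0.0844).

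Abhd5, the coactivator of Pnpla2, read 891, 914 and 798 in wild-type, 1137, 1208 and 1153 with S273A, 976, 1041 and 989 with rosiglitazone and 879, 900.1 and 905 with MRL24. The S273A arrays were above every other array, 1.34-fold over wild-type (log2 0.42, SE 0.06, adjusted p = 0.000532), and this was the lowest p of the 33 genes in that comparison. The other Abhd5 probe set that passed the filter gave log2 0.14 with S273A, uncalled (adjusted p = 0.407). The rosiglitazone arrays lay between, above all wild-type arrays and below all S273A arrays (log2 0.21 over wild-type, SE 0.06, adjusted p = 0.0486). The rosiglitazone call was close to the threshold and was lost in 11 of 12 fits that left out 1 array (adjusted p 0.055 to 0.178), all but that without wild-type replicate 2. On the other probe set the rosiglitazone difference was log2 -0.11, uncalled (adjusted p = 0.502).

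Lipe, hormone-sensitive lipase, read 386, 352 and 434 in wild-type, 419, 514 and 419 with S273A, 525, 533 and 515 with rosiglitazone and 478, 498 and 462 with MRL24. Rosiglitazone arrays were above all others and 1.33-fold over wild-type (log2 0.41, SE 0.09, adjusted p = 0.0093). Both the MRL24 difference (log2 0.29, adjusted p = 0.068) and the S273A difference (log2 0.20, adjusted p = 0.223) were uncalled. Mgll, monoglyceride lipase, averaged 368 ± 35.1 in wild-type and 423 ± 64.9 with rosiglitazone, uncalled (log2 0.19, adjusted p = 0.304), and the S273A difference was log2 -0.04 (adjusted p = 0.886).

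Rosiglitazone and MRL24 were given at the same dose and time, so they can be set against each other directly. Of the 33 genes, Plin2, Acss2 and Dgat2 were higher and Lpin2 was lower with rosiglitazone than with MRL24, where 2.66% of all tested genes were called, 1.50% higher and 1.16% lower. Of these all-gene calls 56.3% were higher, against 69.0% with the arrays at a common median. In 10 genes every rosiglitazone array was above and in 3 every one was below the MRL24 arrays (11.2% and 14.8% of all tested genes). The difference was log2 0.49 for Plin2 (SE 0.04, adjusted p = 5.88e-06), 0.36 for Acss2 (SE 0.08, adjusted p = 0.016), 0.31 for Dgat2 (SE 0.06, adjusted p = 0.00962) and -0.24 for Lpin2 (SE 0.06, adjusted p = 0.0342). Acly was higher in all rosiglitazone arrays than in all MRL24 arrays, but the difference was not called (log2 0.22, 95% interval 0.09 to 0.36, adjusted p = 0.0779). For Acaca the difference was log2 -0.23 with an interval of -0.61 to 0.14, for Pnpla2 0.10 with -0.04 to 0.24 and for Lipe 0.12 with -0.07 to 0.32, so differences of either sign remained within the error. Leaving out 1 ligand array ended the calls for Lpin2 in each of 6 fits (adjusted p 0.0764 to 0.141). It ended that for Acss2 in all but that without rosiglitazone replicate 1 (0.0504 to 0.0952). The Dgat2 call was lost without rosiglitazone replicate 2 (0.0542), rosiglitazone replicate 3 (0.0548) or MRL24 replicate 1 (0.0693). The number of the 33 genes called was 1 without rosiglitazone replicate 2, rosiglitazone replicate 3 or MRL24 replicate 1, and 2 without MRL24 replicate 2 or MRL24 replicate 3, with Plin2 among them each time.

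Each ligand in wild-type cells was also compared with untreated S273A cells, comparisons added after results had been seen. These contrasts differ in both receptor form and ligand, and share arrays with the comparisons above. Rosiglitazone-treated wild-type cells had 6 of the 33 genes higher (Plin2, Acly, Dgat2, Scd2, Acss2 and Fads3) and 4 lower (Lpin2, Fads1, Elovl5 and Abhd5) than S273A cells, against 9.56% of all tested genes called, 5.36% higher and 4.20% lower. That split was 465 higher and 364 lower, but 419 and 490 after quantile normalization and 372 and 467 at a common median. Fads1 differed by log2 -0.27 (adjusted p = 0.0053) and Elovl5, with means of 1811 ± 90.9 in S273A and 1492 ± 97.1 with rosiglitazone, by -0.28 (adjusted p = 0.00695). Both genes were uncalled in each group against untreated wild-type. The other Elovl5 probe set gave -0.16 for rosiglitazone against S273A (adjusted p = 0.128 in 1 limma fit over all probe sets). In a run on second brightest probe sets, the calls of this comparison for Elovl5, Fads3, Lpin2, Dgat2, Scd2 and Abhd5 were lost. MRL24-treated cells had Acly (log2 0.39, adjusted p = 0.00161) and Scd2 (0.13, adjusted p = 0.00987) higher and Abhd5 (-0.38, adjusted p = 0.00145) and Scd1 (-0.18, adjusted p = 0.00894) lower than S273A cells, against 10.0% called, 6.31% higher and 3.73% lower. Here the split of 547 higher and 324 lower became 430 and 559 after quantile normalization and 334 and 603 at a common median. The Scd1 call was lost without MRL24 replicate 2 (adjusted p = 0.0552), and the Scd2 call without MRL24 replicate 3 (0.0538). The difference of Abhd5 between rosiglitazone and S273A (log2 -0.22, adjusted p = 0.036) was lost in 8 of 12 fits that left out 1 array (adjusted p 0.0507 to 0.131), and held without any 1 wild-type array or MRL24 replicate 3. Beside these differences, 4 of 8 fibroblast markers were higher than in S273A cells with rosiglitazone and 5 with MRL24, and 2 of 4 tested macrophage markers (Cd68 and Cd14) and Pparg were lower with each ligand. Their part in these differences was not tested.

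The 6 dim genes had low values, and for some of them the arrays of a group differed severalfold. Cidec, which encodes the droplet fusion protein Fsp27 of fat cells, read 7.93, 14.6 and 32.6 in wild-type, 2.86, 14.1 and 5.07 with S273A, 84.7, 88.6 and 119 with rosiglitazone and 22.4, 27.4 and 41.5 with MRL24. Every rosiglitazone array was above every other array. In a fit with no filter on dim genes, Cidec was called higher with rosiglitazone than in wild-type (adjusted p = 0.00272) and than with MRL24 (adjusted p = 0.0402). At such intensities the added 16 sets much of the log2 difference, so no size is given. None of the other 5 was called in that fit. G0s2, the inhibitor of Pnpla2, averaged 56.2 ± 15.7 in wild-type, 47.8 ± 30.8 with S273A, 78.8 ± 17.6 with rosiglitazone and 36.3 ± 23.9 with MRL24 (rosiglitazone against MRL24: adjusted p = 0.33 without a filter). Thrsp (Spot 14, a lipogenic regulator) had group means from 52.5 to 67, Cidea (a droplet protein of brown fat) from 46.8 to 54.8, Acacb (acetyl-CoA carboxylase 2) from 9.08 to 24.7, and Elovl6 (a long-chain elongase) from 113 to 121.

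**Figure D3:**
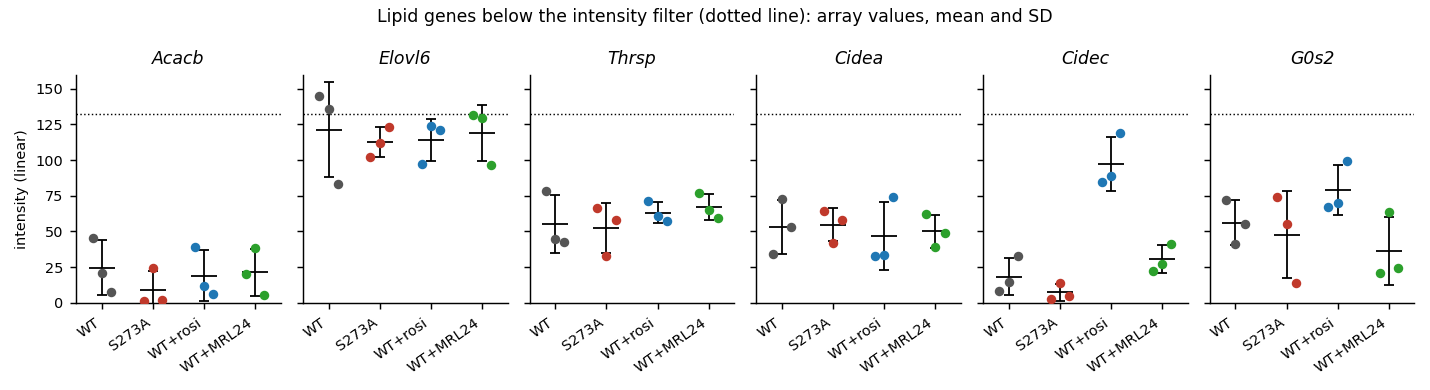
Intensity on a linear scale (y axis) for the 6 lipid genes below the filter at 132 (dotted line), with the 3 arrays of each group as points and the mean and SD as bars. The Cidec arrays with rosiglitazone, at 84.7 to 119, lay above the other 9, and each group of the other 5 genes overlapped with untreated wild-type.

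Several genes had more than 1 probe set, and these did not always give the same value. A second Scd1 probe set read 2726, 2214 and 2890 in wild-type and 3401 to 3865 in the other 9 arrays. Its differences were log2 0.41 with S273A, 0.50 with rosiglitazone and 0.53 with MRL24 (adjusted p = 0.0132, 0.00353 and 0.0112 in 1 fit over all probe sets), where the brightest gave 0.15, 0.03 and -0.03. The other Fads2 probe set read 208, 170 and 205 in wild-type and 256 to 315 elsewhere, with differences of 0.50, 0.57 and 0.47 (adjusted p = 0.0204, 0.00821 and 0.0341). The other Scd2 probe sets gave 0.25 and 0.64 with rosiglitazone and 0.25 and 0.69 with MRL24 against 0.07 and 0.04 on the brightest. On each of these probe sets untreated wild-type replicate 2, the array with the lowest 5′ to 3′ actin ratio, was the lowest of the 12. The other 2 wild-type arrays were also below every ligand array on each. The part of RNA quality in these differences was not tested.

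For Acly the other 2 probe sets above the filter gave rosiglitazone differences of 0.59 and 0.81 and MRL24 differences of 0.38 and 0.65. With MRL24 the second Agpat1 and Gpam probe sets gave 0.40 and 0.29, against -0.02 and -0.01 on the brightest. These were uncalled in the fit over all probe sets (adjusted p = 0.0545 and 0.0563). In the limma run on second brightest probe sets both were called (adjusted p = 0.0154 and 0.0239). The second Dgat2 and Fads3 probe sets each gave 0.30 with rosiglitazone (adjusted p = 0.115 and 0.116). The other Lpin2 probe sets gave -0.20 and 0.01 (adjusted p = 0.235 and 0.973), and the second Lpin1 probe set gave -0.07 with S273A against -0.32 on the brightest. The second Abhd5 probe set gave 0.14 with S273A (adjusted p = 0.407) and -0.11 with rosiglitazone. The calls against wild-type for Abhd5, Lpin1, Lpin2, Dgat2 and Fads3 thus each rest on 1 probe set. For MRL24 against S273A the second Abhd5 probe set gave log2 -0.26. That was called in the limma run on second brightest probe sets but not in the fit over all probe sets (adjusted p = 0.0791). Plin2, Lipe, Dgat1 and Acaca had no other probe set, and the other Pnpla2 probe set lay below the filter, so their calls also rest on 1.

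**Figure D4:**
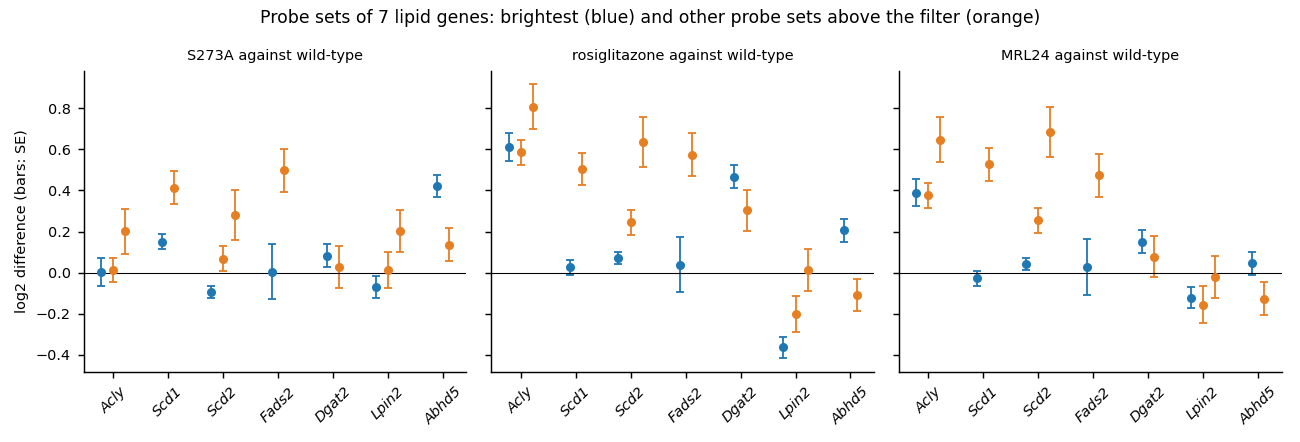
Log2 difference (y axis) with SE bars for the probe sets of 7 lipid genes, brightest in blue and others above the filter in orange, in 3 comparisons with untreated wild-type. The Acly probe sets lay together above 0 with both ligands, while for Scd1, Scd2 and Fads2 the brightest probe set lay closer to 0 with both ligands than the others.

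A wider list of 85 lipid genes around the same pathway had 48 tested, 17 below the filter and 20 without a probe set. It was also chosen with earlier results of these data known. Of the 48, 10 rose and 4 fell with rosiglitazone, 3 rose and 2 fell with S273A, and 4 rose and none fell with MRL24. These are 29.2%, 10.4% and 8.33% of the 48, beside 8.52%, 7.78% and 5.86% of all tested genes, so the S273A and MRL24 shares were near the background. Against MRL24, 8 were higher with rosiglitazone and none lower (16.7% beside 2.66%). The differences in uptake and carriage of fatty acids were the largest. Cd36, the fatty acid translocase, averaged 164 ± 13.2 in wild-type, 302 ± 26.4 with S273A, 1422 ± 40 with rosiglitazone and 411 ± 9.27 with MRL24 (1.77-fold, 8.02-fold and 2.38-fold over wild-type, adjusted p = 1.66e-05, 1.14e-12 and 6.36e-07). Fabp4 rose by 1.41 with rosiglitazone and 0.69 with MRL24 (adjusted p = 1.48e-11 and 9.09e-07), and Lpl by 0.83 and 0.24 (adjusted p = 2.04e-07 and 0.0264). Fabp5, a related carrier, was higher with rosiglitazone than with MRL24 by 0.47 (adjusted p = 0.00245), as were Cd36 by 1.75, Fabp4 by 0.71 and Lpl by 0.58.

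Pcx, pyruvate carboxylase, which feeds citrate synthesis, rose in all 3 groups, by log2 0.35 with S273A, 0.66 with rosiglitazone and 0.25 with MRL24 (adjusted p = 0.00286, 6.77e-06 and 0.0354). Cs, citrate synthase, rose by 0.14 with S273A (adjusted p = 0.0453) and was also called higher with rosiglitazone, but not with MRL24. It averaged 3385 ± 40.7 in wild-type, 3745 ± 137 with S273A, 3939 ± 60.1 with rosiglitazone and 3676 ± 112 with MRL24. Those lower with S273A were Mbtps1, a protease that activates SREBPs (-0.23, adjusted p = 0.0099), and Hilpda, a droplet protein that inhibits Pnpla2 (-0.15, adjusted p = 0.00956). Hilpda averaged 10081 ± 208 in wild-type, 9081 ± 265 with S273A and 11378 ± 67.7 with rosiglitazone. Those lower with rosiglitazone were Cavin2, a caveola coat protein (-0.35, adjusted p = 0.00328), Hacd2, an elongation dehydratase (-0.33, adjusted p = 0.0419), Plpp3, a lipid phosphatase (-0.24, adjusted p = 0.0135), and Gpd2, mitochondrial glycerol 3-phosphate dehydrogenase (-0.21, adjusted p = 0.0245). The median log2 difference of the 48 genes was -0.03 with S273A, 0.02 with rosiglitazone and 0.01 with MRL24.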

How the data were processed

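Biotin-labelled RNA was hybridised to 12 arrays in 4 groups of 3, per the labels' protocols. The authors deposited linear intensity values, whose normalization is not given in the sources used. Every value column was used. Probe sets were named through the platform's annotation table: 20380 of 22690 had 1 symbol, and 20351 were looked up by Entrez ID with 0 symbols changed.

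Each gene was read from its brightest probe set, genes under the 30th percentile of gene means (132) were left out, and log2(value + 16) was fitted over 12 arrays with limma 3.58.1 in R 4.3.3 (lmFit, eBayes with a trend; 8 residual and 7.56 prior degrees of freedom), after the code was tested on simulated data. The number of arrays limits the precision. A single gene tested alone by an exact permutation of 3 against 3 cannot go below p = 0.1. Promoters were searched in python 3.11.15.

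The text gives array values for the genes called in a comparison with wild-type or between ligands, means for the rest, and, of the wider list, at most 4 genes per comparison and direction with the largest difference. Adipocyte, fibroblast, brown fat, macrophage and muscle markers were checked; no brown fat or muscle marker was called. The genes and lists were chosen with earlier results of these data known. Alternatives changed the pseudocount, filter, probe set, scaling, array weights, block and arrays.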

Additional observations from a re-analysis of the deposited data

How the results depend on the processing

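Over all alternatives, the called differences of single lipid genes kept direction and call in 706 of 829 refits, lost the call in 121 and turned in 2, both on the second brightest probe set: Abhd5 with rosiglitazone over wild-type (-0.11) and Scd1 with MRL24 against S273A (0.12). Acly, Acss2, Plin2 and Lipe with rosiglitazone over wild-type and Plin2 over MRL24 stayed called in every alternative run. Plin2 and Lipe have only 1 probe set, so the run on second brightest probe sets could not include them. The mean of all probe sets left their values unchanged. With MRL24 against wild-type, 1 lipid gene was called without a filter, with a filter at the 50th percentile, with a replicate block or with only the 6 arrays compared, and 6 on the second brightest probe set. That probe set, an alternative chosen after seeing the data that left 18 of these genes, gave 2 for S273A and 5 for rosiglitazone against wild-type, 1 for rosiglitazone against MRL24 and 2 for rosiglitazone against S273A. The background of that run is not that of the main fit: 326 of all 3251 genes in it were called for S273A against wild-type. With only 6 arrays, 1 was called for S273A. Leaving out 1 array in turn gave 1 to 5 for S273A, 8 to 10 for rosiglitazone, 1 to 3 for MRL24, 1 to 6 for rosiglitazone against MRL24, 9 to 11 for rosiglitazone and 3 to 5 for MRL24 against S273A.

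Counts over all genes for MRL24 against wild-type ran from 508 to 226 without a filter, 50 with 6 arrays, 70 without MRL24 replicate 3, 155 without wild-type replicate 2 and 838 without wild-type replicate 1. With 6 arrays they were 243 for S273A, 372 for rosiglitazone and 557 for rosiglitazone against MRL24, and with array weights 673 for rosiglitazone against MRL24 and 1453 for MRL24 against S273A. The share of higher calls for MRL24 was 57.9%, against 43.8% after quantile normalization and 30.2% at a common median. Replicate numbers shared by groups gave no visible pairing. Correlations of deviations were -0.116 to 0.147 over 18 same-number pairs and -0.158 to 0.176 over 36 pairs with different numbers. This does not exclude a pairing. The replicate block gave 4, 8, 1 and 4 lipid genes for S273A, rosiglitazone, MRL24 and rosiglitazone against MRL24. The cause of these changes was not tested. Dim genes such as Cidec are limited by their signal over background.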
